A study of Mus musculus with 5 samples.

Results

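Amino acid transporters were compared between pancreatic beta cells in which the cell cycle inhibitor p16INK4a had been switched on and beta cells that expressed a fluorescent marker alone. The genes were every entry of the expression table whose symbol begins with Slc1a, Slc3a, Slc7a, Slc36a, Slc38a or Slc43a followed by a digit. This gave 44 of the 23951 genes listed, in 6 families. Of these, 42 encode transporters or the chains they pair with. The other 2, Slc7a6os and Slc36a1os, are opposite-strand genes that carry a transporter's name but encode no transporter, and they are described apart. The authors had tested 26 of the 44, and the remaining 18 carried the status of genes that were not tested.

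The p16 group held 3 samples from mice carrying Ins-rtTA, tet-GFP and tet-p16ink4a, and the GFP group held 2 samples from control mice carrying Ins-rtTA and tet-GFP. The p16 samples are numbered replicates 1, 2 and 3 and the GFP samples replicates 2 and 3. No GFP replicate 1 is among the samples. Both groups received tetracycline for 10 days, both expressed rtTA from an insulin promoter and GFP from a tet-responsive transgene, and cells of both were sorted from dissociated islets by their GFP signal, so the control carries everything except the p16 transgene. The labels give neither the age nor the sex of the mice, and do not say whether each sample was its own mouse, so p-values may in part measure technical spread. RNA-seq levels were given as FPKM, fragments scaled by transcript length and library size, with 1 value per group and gene. No value per sample was at hand, so no SD can be given, and library depth is unknown. A gene was called higher or lower where the q-value in the authors' deposited table, the p-value adjusted over all 13264 tested genes, was below 0.05.

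Cdkn2a, the gene of p16INK4a, stood at 34.6 FPKM in the p16 group and 0.657 FPKM in the GFP group, a 52.7-fold rise (q = 0.00245 in the authors' deposited table). Neither the sequence nor the species of the p16 transgene is in the labels, so the transgene and the mouse's own gene cannot be told apart in this value. Of the beta cell markers, Ins1, Ins2 and Iapp have no estimate, since p16 and GFP alike show 0 and a status for too many fragments. The other 7 were all measured, among them G6pc2, a glucose-6-phosphatase of beta cells, at 2327 FPKM in p16 and 3012 FPKM in GFP. Markers of other islet cells were also present: the summed level of 6 delta cell markers was 2783 FPKM in p16 and 1297 FPKM in GFP, with Sst and Rbp4 called higher of 4 tested. The 3 PP cell markers summed to 1219 FPKM in p16 and 571.7 FPKM in GFP, with Ppy and Pyy called higher. The 8 alpha cell markers summed to 2822 FPKM in p16 and 2191 FPKM in GFP. The 7 duct markers summed to 814.1 FPKM in p16 and 376.3 FPKM in GFP, with 4 called higher and Krt19 called lower. Most of that sum was Cldn4, at 486.5 FPKM in p16 and 143.3 FPKM in GFP, with Clu and Krt7 next. Other duct markers were low, with Sox9 at 0.492 FPKM in p16 and 0.122 FPKM in GFP. Krt19 stood at 1.79 FPKM in p16 and 5.75 FPKM in GFP. Stellate and fibroblast markers were scarce, with 8 summing to 4.87 FPKM in p16 and 0.584 FPKM in GFP, and both tested members, Col1a2 and Dcn, were called higher. The 8 macrophage and lymphocyte markers summed to 42.97 FPKM in p16 and 33.8 FPKM in GFP. C1qa made up most of this, at 35.1 FPKM in p16 and 25.9 FPKM in GFP. Cd79a came next, at 5.50 FPKM in p16 and 7.41 FPKM in GFP, and neither was called. Cd68 was called higher, at 1.95 FPKM in p16 and 0.229 FPKM in GFP (q = 0.0498 in the authors' deposited table). Ptprc was at 0.0269 FPKM in p16 and 0.00329 FPKM in GFP, and Cd3e was listed at 0. Acinar and endothelial markers summed to 12.9 and 5.10 FPKM in p16 and to 13.8 and 4.50 FPKM in GFP, with none called of 8 tested. The part of these other cells in the transporter levels was not tested.

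Amino acids cross the plasma membrane on carriers that differ in what they move and in what drives them. Sodium-coupled carriers of the Slc38 family concentrate small neutral amino acids in the cell, and exchangers such as Slc1a5 and Slc7a5 then trade these for others, including leucine. Light chains of the Slc7 family work only when joined to a heavy chain of the Slc3 family. In beta cells, leucine, arginine and glutamine are known to stimulate or amplify insulin secretion, and arginine does so partly by carrying positive charge into the cell. When amino acids run short or the endoplasmic reticulum is stressed, the transcription factor ATF4 is known to raise the transcription of many of these carriers by binding a C/EBP-ATF composite element, whose core reads TGATGNAA, together with C/EBP partners.

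The stretches around the transcription start are shown for the 3 of the 5 called transporter genes that had a promoter window, so that the presence or lack of that core can be seen. Slc1a5 and Slc7a5 had no window in the table used and were not searched. Each runs 5′ to 3′ on the strand of the gene, from 120 bases before the start through the first 20 bases of the transcript, with any match to TGATGNAA on either strand in capitals. They come from RefSeq on the GRCm38.p6 build and lie on the minus strand at chr11:20332694-20332833 for Slc1a4, chr3:50443594-50443733 for Slc7a11 and chr5:148399885-148400024 for Slc7a1.
Slc1a4: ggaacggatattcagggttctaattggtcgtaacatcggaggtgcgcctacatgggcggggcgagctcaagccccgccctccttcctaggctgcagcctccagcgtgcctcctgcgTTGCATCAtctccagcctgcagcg
Slc7a11: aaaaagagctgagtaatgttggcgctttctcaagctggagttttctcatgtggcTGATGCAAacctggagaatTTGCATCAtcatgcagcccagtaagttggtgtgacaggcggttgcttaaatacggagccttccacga
Slc7a1: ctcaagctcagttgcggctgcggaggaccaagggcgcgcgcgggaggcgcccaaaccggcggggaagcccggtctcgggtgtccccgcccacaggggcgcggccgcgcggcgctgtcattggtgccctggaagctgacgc
In Slc1a4 the match began 4 bases before the start, and in Slc7a11 a pair of matches on opposite strands began 66 and 47 bases before it. The Slc7a1 stretch held none, and neither did the rest of its 300-base window. Over windows of 250 bases before and 50 from the start, read on both strands, 3 of the 33 members with a window held a match, or 9.09%, and the third was Slc7a7. Slc7a7 has more than 1 listed start, and the same match lay at -1 from the nearest start and at -243 from another, with a further match at -141 from the same start as the -1. Among all genes, tested or not, 1219 of 27025 with a window held a match, or 4.51%. Among the genes the authors tested the share was 2.73%, or 267 of 9776 with a window. The 33 members with a window include 11 that were not tested, and none of those held a match. Of the tested members with a window, 2 of the 3 called and 1 of the 19 not called held a match. In a list of 29 genes of the amino acid response, 6 of the 27 with a window held a match, or 22.2%, namely Asns, Chac1, Nupr1, Pycr1, Trib3 and Vldlr. Many genes of that list are known targets of ATF4, so a higher share follows in part from how it was chosen. Among its genes called higher, 3 of the 10 with a window held a match, namely Chac1, Trib3 and Vldlr. A match is a run of letters and not a measured binding site.

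Transporter genes were called higher in the p16 group and none was called lower. The 5 called members were Slc1a4, Slc1a5, Slc7a1, Slc7a5 and Slc7a11, and 21 of the 26 tested members were not called. The members called higher were 19.2% of those tested, and over all tested genes the authors' deposited table called 4.32% higher in p16, 1.1% lower and 5.42% in either direction. The p16 value was the higher of the pair in 22 of the 26 tested members, and in 48.4% of all tested genes. The median log2 ratio of p16 over GFP was 0.30 over the tested members and -0.02 over all tested genes. The 18 untested members, all at 0.368 FPKM or less in p16 and 0.316 FPKM or less in GFP, are outside these counts. In bulk RNA such as this, more cells of a type and more RNA per cell cannot be told apart.

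**Figure D1:**
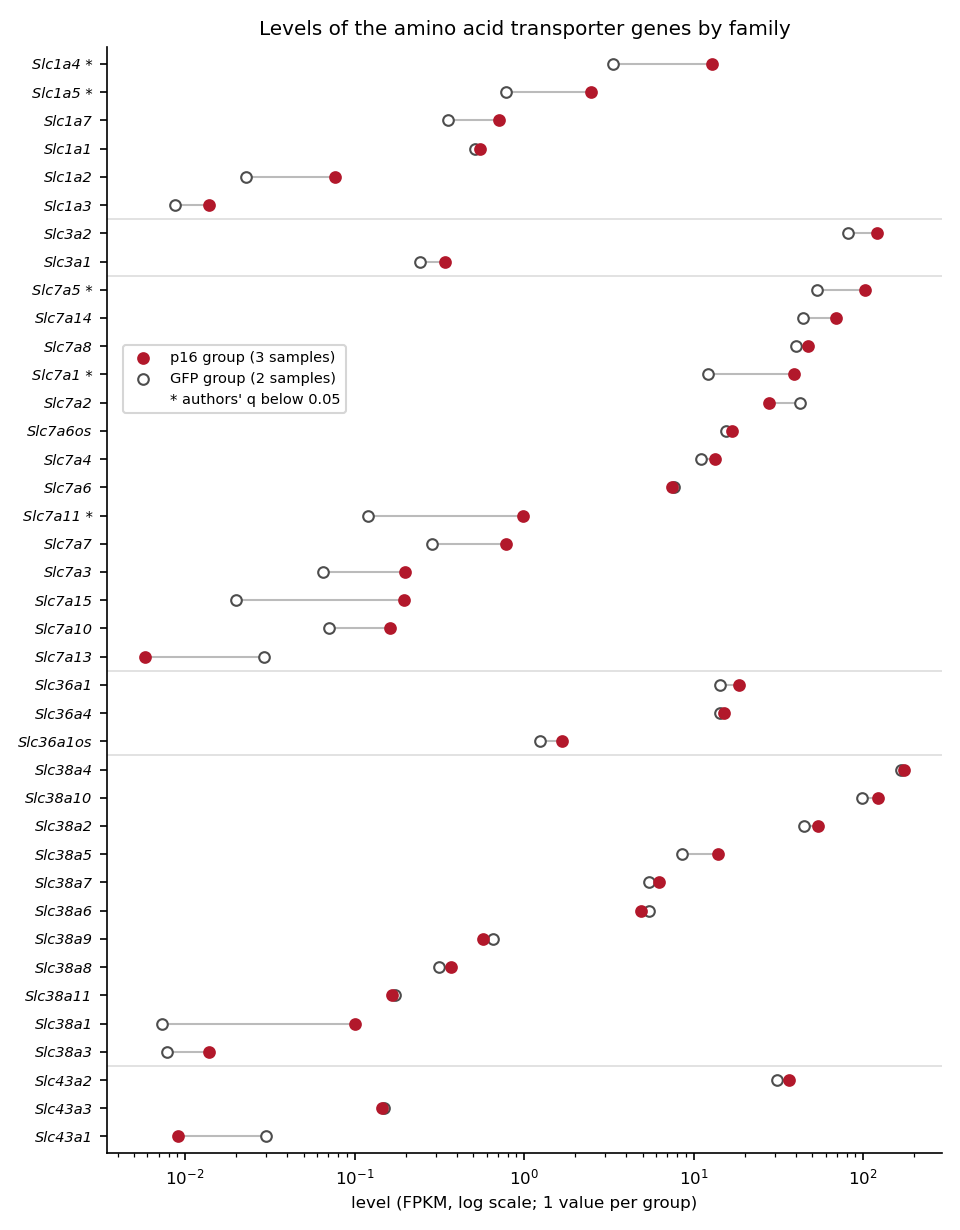
Levels of the 39 members above 0 in at least 1 group, in FPKM on a log scale, by family and ordered by the p16 value. Filled points are the p16 group (3 samples), open points the GFP group (2 samples), each the authors' value for the group, and asterisks mark a q-value below 0.05 in the authors' deposited table. Slc38a4 stood highest in both groups, and the 5 called members lie to the right in p16 at levels between 0.980 and 102.7 FPKM.

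Within the Slc1 family, both neutral exchangers rose and the glutamate carriers stayed low. Slc1a4, which exchanges alanine, serine and cysteine, stood at 12.9 FPKM in p16 and 3.35 FPKM in GFP. Its log2 ratio of 1.94 is a 3.84-fold rise (q = 0.00245 in the authors' deposited table). Slc1a4 lies on chromosome 11 from 20202183 to 20232716 in the mm9 build. Slc1a5, a glutamine exchanger, stood at 2.48 FPKM in p16 and 0.778 FPKM in GFP, a log2 ratio of 1.67 (q = 0.00899 in the authors' deposited table). Slc1a5 lies on chromosome 7 from 17366695 to 17383623. Together the pair summed to 15.4 FPKM in p16 and 4.13 FPKM in GFP. Slc1a4 was the more abundant of the pair, at 5.18 times the level of Slc1a5 in p16 and 4.31 times in GFP.

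The 5 glutamate carriers of the family, which take up glutamate with sodium and are best known from neurons and glia, summed to 1.35 FPKM in p16 and 0.899 FPKM in GFP. Slc1a1 stood at 0.548 FPKM in p16 and 0.514 FPKM in GFP and was not called. Slc1a7 stood at 0.711 FPKM in p16 and 0.354 FPKM in GFP and was not called either (q = 0.292 in the authors' deposited table). Slc1a2 and Slc1a3 were not tested, at 0.0765 FPKM or less in p16 and 0.0230 FPKM or less in GFP, and Slc1a6 was listed at 0 in both groups. The whole Slc1 family summed to 16.7 FPKM in p16 and 5.03 FPKM in GFP, and Slc1a4 made up most of it in both groups.

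The cationic carriers, which bring in arginine, lysine and ornithine, had 1 call, and their values did not all lie on the same side. Slc7a1, the widely expressed member, stood at 39.1 FPKM in p16 and 12.2 FPKM in GFP, a 3.22-fold rise (log2 ratio 1.69, q = 0.00245 in the authors' deposited table). The gene is on chromosome 5 from 149138986 to 149211480 in mm9. Slc7a2, the member known from liver and activated macrophages, stood at 27.8 FPKM in p16 and 42.5 FPKM in GFP. Its log2 ratio was -0.61 with p = 0.0223 but q = 0.186 in the authors' deposited table, so it was not called. Slc7a4, a relative for which arginine transport has not been established, stood at 13.4 FPKM in p16 and 11.01 FPKM in GFP (q = 0.671 in the authors' deposited table). Slc7a3 was not tested, at 0.198 FPKM in p16 and 0.0652 FPKM in GFP.

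The order of the main cationic carriers by level therefore differed between the groups. Slc7a1 made up 48.6% of the summed level of the 4 cationic carriers in p16 and 18.5% in GFP, while Slc7a2 made up 34.6% in p16 and 64.6% in GFP. Slc7a1 stood at 1.40 times the level of Slc7a2 in p16 and at 0.286 times in GFP. The sum itself was 80.5 FPKM in p16 and 65.7 FPKM in GFP. Neither the shares nor the sum has a test, since there is 1 value per group.

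**Figure D2:**
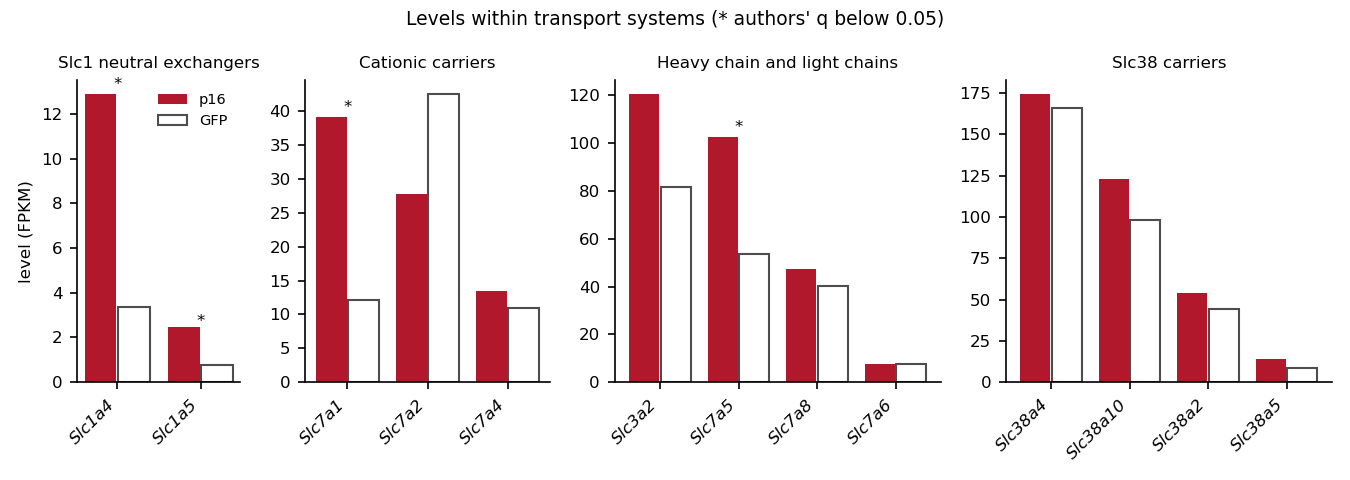
Levels in FPKM of the main genes of 4 transport systems, with p16 bars (filled) left of GFP bars (open) and an asterisk where the authors' deposited table has a q-value below 0.05; each bar is 1 value per group, so there are no error bars. Slc7a1 is the tallest cationic carrier in p16 at 39.1 FPKM and Slc7a2 in GFP at 42.5 FPKM, while the order within the Slc38 panel is the same in both groups.

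Among the heavy and light chains, Slc7a5 and Slc7a11 rose, and the shared heavy chain did not pass the threshold. Slc7a5, the light chain that exchanges leucine and other large neutral amino acids, stood at 102.7 FPKM in p16 and 53.5 FPKM in GFP. This is a 1.92-fold rise (log2 ratio 0.94, q = 0.0130 in the authors' deposited table), the smallest ratio among the called members. Slc7a5 lies on chromosome 8 from 124405046 to 124431586 in mm9. Slc3a2, the heavy chain that carries it to the cell surface, stood at 120.4 FPKM in p16 and 81.5 FPKM in GFP, with a log2 ratio of 0.56. It had p = 0.0354 and q = 0.242 in the authors' deposited table and was not called. Slc7a5 stood at 0.853 times the level of Slc3a2 in p16 and 0.657 times in GFP. All 10 light chain genes together stood at 1.33 times the level of Slc3a2 in p16 and 1.25 times in GFP.

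Slc7a11, which trades glutamate for cystine and so feeds glutathione synthesis, had the highest ratio of the tested members from a very low level. It stood at 0.980 FPKM in p16 and 0.119 FPKM in GFP, an 8.21-fold rise (log2 ratio 3.04, q = 0.00245 in the authors' deposited table). The gene is on chromosome 3 from 50168858 to 50247535 in mm9. Its GFP value was below the 0.316 FPKM that the highest untested member reached in that group. The size of its ratio depends on how low values are treated: with 1 FPKM added to both groups its log2 ratio was 0.82, and with 5 FPKM added it was 0.22. For Slc1a5 these values were 0.97 and 0.37. When p-values were adjusted again over genes with a mean of at least 1 FPKM, the filter itself removed Slc7a11, whose mean was 0.550 FPKM. The other 4 members stayed called. A filter at a mean of 5 FPKM removed Slc1a5 as well, whose mean was 1.63 FPKM, and Slc1a4, Slc7a1 and Slc7a5 stayed called. Neither gene lost its call through the new adjustment.

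The remaining light chains were not called. Slc7a8, a second carrier of large neutral amino acids, stood at 47.3 FPKM in p16 and 40.2 FPKM in GFP (q = 0.726 in the authors' deposited table). Slc7a5 stood at 2.17 times its level in p16 and 1.33 times in GFP. Slc7a6, which exchanges cationic for neutral amino acids, stood at 7.45 FPKM in p16 and 7.66 FPKM in GFP. Slc7a7, of the same exchange type, stood at 0.780 FPKM in p16 and 0.285 FPKM in GFP (q = 0.792 in the authors' deposited table), and its listed locus overlaps that of Oxa1l. Slc7a10, Slc7a13 and Slc7a15 were not tested, at 0.197 FPKM or less in p16 and 0.0710 FPKM or less in GFP, and Slc7a9 and Slc7a12 were listed at 0. Slc3a1, the heavy chain of the Slc7a9 carrier in kidney and gut, was not tested at 0.340 FPKM in p16 and 0.242 FPKM in GFP.

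Slc7a14, a protein of the lysosome, was among the abundant members at 68.7 FPKM in p16 and 43.99 FPKM in GFP. Its log2 ratio was 0.64, with p = 0.0206 and q = 0.178 in the authors' deposited table, so it was not called.

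The carriers of the Slc36 family, some of which move small neutral amino acids together with protons, were not called. Slc36a1, known from the lysosome, stood at 18.5 FPKM in p16 and 14.3 FPKM in GFP (q = 0.515 in the authors' deposited table). Slc36a4 stood at 15.2 FPKM in p16 and 14.3 FPKM in GFP (q = 0.938 in the authors' deposited table). Slc36a2 and Slc36a3, known from kidney and testis, were listed at 0 in both groups.

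The Slc38 family held the highest summed level of the 6 families, 376.8 FPKM in p16 and 329.1 FPKM in GFP, and had no call among its 7 tested members. Slc38a4, a sodium-coupled carrier best known from liver and placenta, was the most abundant of all members, at 174.1 FPKM in p16 and 166.1 FPKM in GFP (q = 0.949 in the authors' deposited table). It made up 46.2% of the family's summed level in p16 and 50.5% in GFP. Slc38a10 came next at 122.6 FPKM in p16 and 97.9 FPKM in GFP (q = 0.613 in the authors' deposited table). Slc38a2, the widely expressed carrier that responds to amino acid shortage in many cells, stood at 53.9 FPKM in p16 and 44.5 FPKM in GFP (q = 0.667 in the authors' deposited table).

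Slc38a5, which carries glutamine in either direction, came nearest to the threshold from outside. It stood at 13.9 FPKM in p16 and 8.55 FPKM in GFP, a log2 ratio of 0.70, with p = 0.0196 and q = 0.174 in the authors' deposited table. On the inner side the nearest was Slc7a5, with q = 0.0130 in the authors' deposited table. Slc38a6, Slc38a7 and Slc38a9, the last an arginine sensor on the lysosome, ranged from 0.573 to 6.22 FPKM in p16 and from 0.653 to 5.46 FPKM in GFP without a call. Slc38a1, Slc38a3, Slc38a8 and Slc38a11 were not tested, at 0.368 FPKM or less in p16 and 0.316 FPKM or less in GFP.

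Slc43a2, a facilitated carrier of large neutral amino acids, stood at 36.4 FPKM in p16 and 31.1 FPKM in GFP (q = 0.746 in the authors' deposited table), and its locus holds a microRNA gene, Mir3971. Slc43a1 and Slc43a3 were not tested, at 0.146 FPKM or less in p16 and 0.150 FPKM or less in GFP. The opposite-strand genes were not called: Slc7a6os, which codes for a protein, stood at 16.8 FPKM in p16 and 15.4 FPKM in GFP, and the long non-coding RNA Slc36a1os at 1.66 FPKM in p16 and 1.25 FPKM in GFP. Whether reads were assigned by strand is not given in the sources used here.

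By family, the median log2 ratio over tested members was 1.34 in Slc1 (4 members), 0.46 in Slc7 (10), 0.37 in Slc36 (3) and 0.20 in Slc38 (7), while Slc3 and Slc43 had 1 tested member each. Leaving out the opposite-strand genes gave 0.64 for Slc7 and 0.23 for Slc36. Calls were found among low and high genes. Of the 5 called members, 1 each had a mean level below 1, from 1 to 5, from 5 to 10, from 10 to 50 and at or above 50 FPKM. These ranges held 5, 1, 4, 9 and 5 tested transporter genes in that order, so the share called was not even across levels. All 42 transporter genes together summed to 893.2 FPKM in p16 and 687.3 FPKM in GFP. The 5 called members made up 17.7% of that sum in p16 and 10.2% in GFP. They were picked out because they were higher in p16, so a larger share there follows from the choice.

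**Figure D3:**
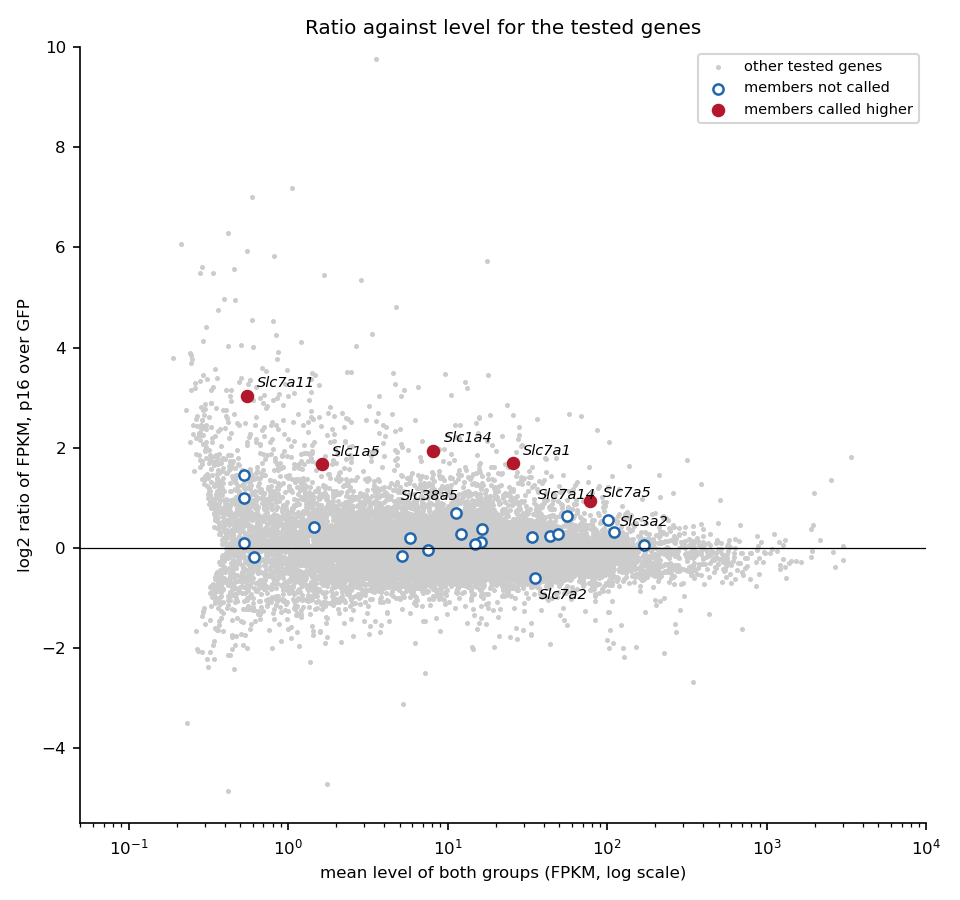
Log2 ratio of p16 over GFP (vertical axis) against the mean level of both groups in FPKM on a log scale (horizontal axis) for tested genes, leaving out the 90 listed at 0 in a group. Grey dots are all tested genes, filled points the 5 called members and open points the 21 tested members that were not called; the members named have an unadjusted p-value below 0.05 in the authors' deposited table. The 5 called members lie at log2 ratios from 0.94 to 3.04, and Slc7a2 is the lowest member at -0.61.

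GC content moved with the calls across the whole table. The median GC content of the longest transcript was 53.3% among all genes called higher, 43.6% among all genes called lower and 49.7% among all tested genes. The called members had a median of 52.9%, with Slc7a11 lowest at 40.7% and Slc1a5 highest at 56.7%, against 49.9% in the other tested members. After the smooth trend of the log2 ratio with GC content and length was taken out, the log2 ratios of the called members were 1.78 for Slc1a4, 1.40 for Slc1a5, 1.47 for Slc7a1, 0.64 for Slc7a5 and 3.19 for Slc7a11. The same step turned the direction of Slc38a10, to -0.08, and of Slc43a2, to -0.09.

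**Figure D4:**
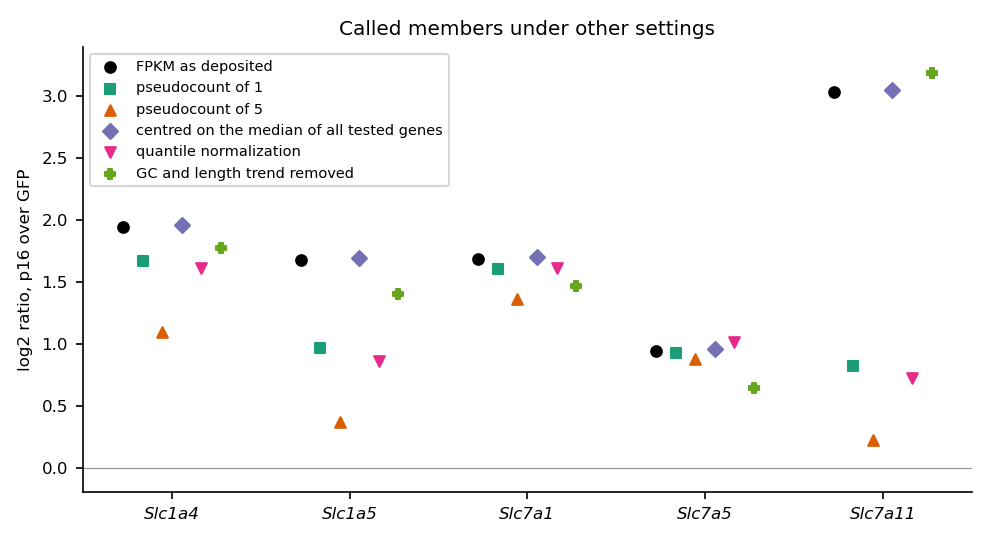
Log2 ratio of p16 over GFP for the 5 called members, from the FPKM as deposited and under 5 other settings. The ratios stay above 0 at every setting shown, though adding 1 or 5 FPKM cannot change the direction of a ratio. Those of Slc7a11 and Slc1a5 shrink when 1 or 5 FPKM is added, and quantile normalization also used an added 1 FPKM.

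Genes of the amino acid response, many of them known targets of ATF4, included several that rose. Of 29 such genes, all tested, the authors' deposited table called 11 higher and 1 lower, or 37.9% higher, against 4.32% higher and 1.1% lower over all tested genes. The median log2 ratio of the list was 0.67. Eif4ebp1, a repressor of translation, stood at 47.2 FPKM in p16 and 8.90 FPKM in GFP. Trib3, a pseudokinase, stood at 46.3 FPKM in p16 and 9.71 FPKM in GFP, and Sesn2, a leucine sensor, at 47.3 FPKM in p16 and 11.4 FPKM in GFP. Psat1, an enzyme of serine synthesis, stood at 11.2 FPKM in p16 and 2.57 FPKM in GFP. The 4 genes had q = 0.00245 each in the authors' deposited table. The others called higher were Phgdh, Shmt2, Mthfd2, Gpt2, Chac1, Vldlr and Eif2ak3, the gene of a kinase that acts upstream of ATF4.

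A single gene of the list was called lower, and 17 were not called. Nupr1, a stress-induced cofactor, fell to 11.5 FPKM in p16, against 30.05 FPKM in GFP (q = 0.00597 in the authors' deposited table). Atf4 itself stood at 504.0 FPKM in p16 and 580.5 FPKM in GFP and was not called (q = 0.792 in the authors' deposited table). Its activity is known to be set largely by translation, which RNA levels do not show. Asns, asparagine synthetase, stood at 108.5 FPKM in p16 and 66.5 FPKM in GFP (q = 0.108 in the authors' deposited table). Ddit3, a stress transcription factor, stood at 193.3 FPKM in p16 and 266.4 FPKM in GFP (q = 0.561 in the authors' deposited table). Ppp1r15a, a phosphatase subunit that reverses the translational block, stood at 134.1 FPKM in p16 and 206.9 FPKM in GFP (p = 0.0381, q = 0.253 in the authors' deposited table).

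Carriers of amino acids outside the 6 families had 1 call among 19 tested of 31, or 5.26%, near the 4.32% called higher over all tested genes, and a median log2 ratio of 0.19. The called gene was Slc6a20a, a carrier of proline and related imino acids, at 2.24 FPKM in p16 and 0.603 FPKM in GFP (q = 0.0142 in the authors' deposited table). The most abundant were Slc16a10, a carrier of aromatic amino acids, at 81.9 FPKM in p16 and 102.0 FPKM in GFP, and Slc6a6, the taurine carrier, at 50.9 FPKM in p16 and 44.8 FPKM in GFP. Neither was called.

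The machinery through which mTORC1 senses amino acids had 1 higher and 1 lower call among 34 tested of 35 genes, the higher call being 2.94% of those tested, against 4.32% over all tested genes, and a median log2 ratio of -0.02. The gene called higher was Sesn2, which is also in the amino acid response list. The gene called lower was B630005N14Rik, a RefSeq synonym of Bmt2 and Samtor, which encodes a sensor of S-adenosylmethionine, at 7.88 FPKM in p16 and 14.6 FPKM in GFP (q = 0.0357 in the authors' deposited table). Enzymes of glutamate, glutamine and branched-chain amino acid metabolism had 1 call among 21 tested of 23 genes, or 4.76%, near the 4.32% over all tested genes, with a median log2 ratio of 0.07. It was Gpt2, a mitochondrial alanine transaminase, at 7.48 FPKM in p16 and 2.72 FPKM in GFP (q = 0.00245 in the authors' deposited table). Glul, glutamine synthetase, was the most abundant at 221.1 FPKM in p16 and 241.0 FPKM in GFP, without a call. The lists were not tested against each other.

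**Figure D5:**
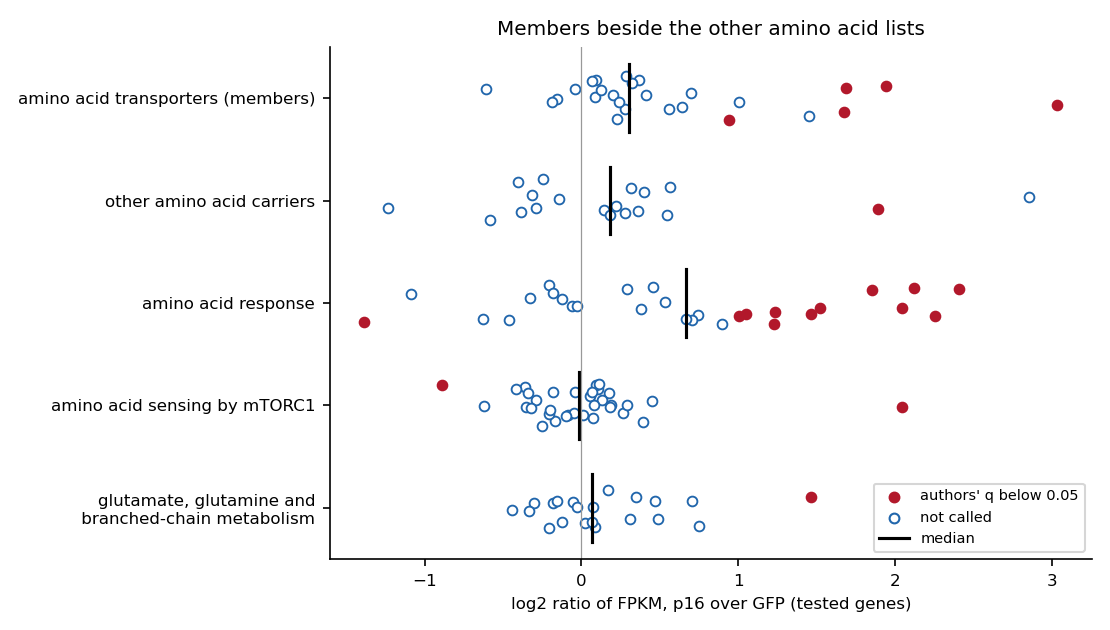
Log2 ratio of p16 over GFP for every tested member of the 6 transporter families and of 4 other amino acid gene lists, 1 point per gene, with vertical spread added only to separate points. Filled points have a q-value below 0.05 in the authors' deposited table and black bars are medians, which run from -0.02 for mTORC1 sensing to 0.67 for the amino acid response, with the transporters at 0.30.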

How the data were processed

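Total RNA of sorted beta cells was sequenced in 3 p16 samples and 2 GFP samples, per the labels. The submitters' processing notes name TopHat2, Cuffnorm and Cuffdiff, with mm9 as the build. Their versions, the annotation, how libraries were scaled and whether strand was used are not given in the sources at hand. The authors' table holds 1 FPKM value per group and gene and the authors' p-values and q-values. FPKM is scaled for transcript length and library size, so levels can be compared between genes but count tests cannot be used; sample depth is unknown. Of 23951 genes 13264 had been tested; Benjamini-Hochberg adjustment of their deposited p-values gave the authors' q-values within 5.23e-07, and 271 genes sat at the smallest p-value, 5e-05.

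The members, the gene lists and the tests were chosen with earlier results of these data known. Calls are the authors' own at a q-value below 0.05. Log2 ratios of p16 over GFP were recomputed from FPKM with no pseudocount. Median ratios and summed levels are descriptions without a test. Values are given for members that were called, had a p-value below 0.05, had a mean of at least 10 FPKM, led their family or lay nearest the threshold; other members are given by status and range, with values for some of them. From each other list, up to 4 called genes of largest difference in log2(FPKM + 1) were given, or, with fewer than 2 called, the 2 of highest level; Atf4, Asns, Ddit3 and Ppp1r15a were added after their values were seen. Starts in the table count from 0, as the lengths of 272 of 887 microRNA genes matched only on that reading and 1 on the other, and 1 was added. GC content and length came from GENCODE release M21, matched for 99.0% of tested genes; natural splines with 4 degrees of freedom each explained 13.8% of the variance of the log2 ratio. Promoter windows came from RefSeq on GRCm38.p6, matched by symbol for 33 of 44 members; TGATGNAA is 8 letters long and was sought on both strands. Alternatives covered the threshold, the filter on low levels, the pseudocount, scaling, the GC trend and shared loci. Computations used numpy 2.4.6, scipy 1.17.1, pandas 2.3.3, patsy 1.0.2 and matplotlib 3.10.9 under Python 3.11.15, and the steps were tested on simulated data. Some results of single marker genes are not reported here.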

Additional observations from a re-analysis of the deposited data

How the results depend on the processing

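No paired analysis was possible because the table gives 1 value per group, so the replicate numbers shared by the labels cannot be used, and leaving out each replicate was not run for the same reason. The number of members called higher was 3 after adjustment over genes with a mean of at least 5 FPKM, against 5, and 4 or 5 under the other alternatives, with none lower under any of them. The filters on the mean lowered this number only by removing Slc7a11 and Slc1a5 from the genes adjusted. Over all tested genes, 573 were higher and 146 lower; at a q-value below 0.01 these were 311 and 58, at a q-value below 0.10 the lower ones were 272, and over genes of at least 5 FPKM the higher ones were 298. The 25 alternative log2 ratios of the called members kept their direction, as did 63 of 65 for the other named members, the exceptions being Slc38a10 and Slc43a2 with the GC and length trend removed. Most of these could not have turned, since an added pseudocount never changes the direction of a ratio. Centring took out a median of only -0.018, smaller in size than any named ratio. Direction was therefore open to change only under quantile normalization and with the trend removed. The median over tested members, 0.30, was 0.20 with a pseudocount of 5. For Slc1, 1.34, it was 0.65 and 0.23 with pseudocounts of 1 and 5, 0.54 with quantile normalization, 1.11 with the trend removed, and 1.81 and 1.94 at means of at least 1 and 5 FPKM. For Slc7, 0.46, it was 0.21 with a pseudocount of 5, 0.32 with quantile normalization, 0.26 with either filter and 0.64 without the opposite-strand genes, an alternative added after the data were seen. For Slc36, 0.37, it was 0.24 and 0.093 with pseudocounts of 1 and 5, 0.12 with quantile normalization, and 0.23 with the trend removed, with the filter at 5 FPKM and without the opposite-strand gene. For Slc38, 0.20, it was 0.052 with the trend removed. Without its most abundant gene the summed level was 3.83 FPKM in p16 and 1.68 FPKM in GFP for Slc1, 0.340 FPKM in p16 and 0.242 FPKM in GFP for Slc3, 222.9 FPKM in p16 and 173.4 FPKM in GFP for Slc7, and 16.8 FPKM in p16 and 15.5 FPKM in GFP for Slc36. It was 202.7 FPKM in p16 and 163.0 FPKM in GFP for Slc38, and 0.155 FPKM in p16 and 0.180 FPKM in GFP for Slc43. Scaling by the median ratio moved no sum by as much as 1%. Depth and the spread between samples are unknown, which limits what can be read from the 23 transporter genes with a mean below 1 FPKM. The cause of the changes was not tested beyond what each setting does by construction.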

Other observations

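Several of these genes lie near close relatives on the same chromosome but at very different levels. Others lie near relatives that are also low, such as Slc43a1 and Slc43a3 on chromosome 2, both untested. On chromosome 15 in mm9, Slc38a1 (96401849 to 96473344), Slc38a2 (96517823 to 96530129) and Slc38a4 (96825254 to 96886387) follow each other. Slc38a1 stood at 0.1005 FPKM in p16 and 0.00727 FPKM in GFP, Slc38a2 at 53.9 FPKM in p16 and 44.5 FPKM in GFP, and Slc38a4 at 174.1 FPKM in p16 and 166.1 FPKM in GFP. On chromosome 11, Slc36a3 (54938325 to 54965208) and Slc36a2 (54971970 to 54998579) were listed at 0 in both groups. Their neighbour Slc36a1 (55017842 to 55049832) stood at 18.5 FPKM in p16 and 14.3 FPKM in GFP. On chromosome 14, Slc7a7 (54980525 to 55036539) stood at 0.780 FPKM in p16 and 0.285 FPKM in GFP, and Slc7a8 (55341052 to 55400723) at 47.3 FPKM in p16 and 40.2 FPKM in GFP. These values are a description of the authors' group values and were not tested.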
